A study of Mus musculus with 8 samples.

Results

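The G1 cell cycle engine was examined in mouse preSC cells, a culture model of the preneoplastic precursors of neuroendocrine small cell lung cancer, after targeting of Max. It was taken as 10 genes matched by symbol among the 23284 genes of the count files: the D cyclins Ccnd1, Ccnd2 and Ccnd3, the E cyclins Ccne1 and Ccne2, the kinases Cdk4, Cdk6 and Cdk2, the phosphatase gene Cdc25a and the kinase gene Wee1. All 10 symbols were present. There were 4 Max KO libraries, from polyclonal populations that had received a guide RNA against Max, and 4 control libraries, from populations that had received a control guide. Every population had been selected with puromycin and came from cells of mixed 129/SvJ; C57BL/6 background carrying Chga-GFP, a fluorescent reporter of a neuroendocrine gene, and the alleles Rblox/lox, p53lox/lox and p130lox, so that Max KO and control cells shared them. The populations were not clones, and the share of edited alleles is not given, so a Max KO library can hold unedited cells.

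Cyclins are the activating subunits of cyclin-dependent kinases. D cyclins bind CDK4 and CDK6, and E cyclins bind CDK2. Both kinds of complex phosphorylate RB and its relatives, which frees E2F factors to switch on the genes of S phase. WEE1 holds CDKs inactive by phosphorylating a tyrosine in the kinase, and the CDC25 phosphatases remove that phosphate. MAX is the obligate partner through which MYC proteins bind DNA at the E-box, and several G1 genes, among them Cdk4, Ccnd2 and Cdc25a, have been described as MYC targets in other cells.

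The libraries held 14952291 to 19480947 reads in genes in Max KO and 13711278 to 19804949 in controls. At these depths 3 reads, the level that a count of 0 allows, were 0.154 to 0.201 CPM (reads scaled to library size) in Max KO and 0.151 to 0.219 CPM in controls. These limits, like the intervals on read shares, hold counting error alone. Separate cultures are not stated for the libraries within a group, so the p-values describe variation among libraries that may be technical. Neuroendocrine markers were abundant throughout (Chga at 393 to 474 CPM in Max KO and 456 to 471 CPM in controls). The list of 10 such markers summed to 7758 to 8448 CPM in Max KO and 7275 to 9184 CPM in controls. Of these 10, 1 was higher and 1 lower in Max KO at an edgeR adjusted p under 0.05, beside 10.9% and 12.2% of all tested genes. Of 24 marker genes of fibroblasts, blood cells, endothelium and other lung epithelium, 17 stayed under 1 CPM in every library. The fibroblast list summed to 48.5 to 64.9 CPM in Max KO and 24.4 to 44.6 CPM in controls, nearly all of it Dcn, while its collagen genes Col1a1, Col1a2 and Col3a1 stayed under 1 CPM. Pdgfra, another fibroblast marker, went the other way, at 0.0513 to 0.334 CPM in Max KO and 0.811 to 2.26 CPM in controls. The part of these shifts in the results was not tested. In such bulk RNA, fewer cells of a type and less RNA per cell cannot be told apart. Mki67, which marks cycling cells, was at 995 ± 61.5 CPM in Max KO and 1014 ± 37.3 CPM in controls (SD, n = 4 each; log2 fold change -0.03, edgeR adjusted p = 0.842). Max itself was at 42.3, 42.3, 59.1 and 68.0 CPM in Max KO libraries 1 to 4 and at 65.5, 70.2, 75.2 and 61.9 CPM in controls 1 to 4. That difference of -0.37 on the log2 scale did not pass the threshold (edgeR adjusted p = 0.0955). Controls 1 and 2 were set against controls 3 and 4, but only controls 1 and 2 were closely alike. The Pearson correlation of log2 CPM was 0.995 between controls 1 and 2 and 0.983 between controls 3 and 4. Among all controls it ranged from 0.973 to 0.995. Reads assigned to no annotated feature were 20.5% to 21.5% in Max KO. They were 18.5% and 18.6% in controls 1 and 2 and 23.3% and 23.4% in controls 3 and 4. Where the call or sign of a member or of a called pathway gene changes between these pairs, the values with each pair are given below.

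Of the 10 genes, 8 had enough reads to be tested. Cdc25a was the 1 gene that fell in Max KO, none rose, and 7 did not pass the threshold of 0.05 on the adjusted p of edgeR's quasi-likelihood test, where 23.1% of all 13358 tested genes passed in either direction and 12.2% passed as lower. The median log2 fold change was 0.01 over the 8 genes and 0.00 over all tested genes. For Cdc25a and Wee1 the 4 Max KO values did not overlap the 4 control values, as for 26.4% of all tested genes. Ccnd2 and Cdk6 stayed at 2 reads or fewer in each library and could not be tested. With only controls 1 and 2 kept, 3 of the 8 genes passed (Cdc25a lower, Ccne1 and Cdk2 higher), beside 44.6% of all genes tested in that fit. With only controls 3 and 4 kept, Cdc25a alone passed, beside 20.7% of all genes tested. DESeq2 and limma-voom on all 8 libraries also called Cdc25a alone, beside 25.7% and 22.9% of all genes.

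**Figure D1:**
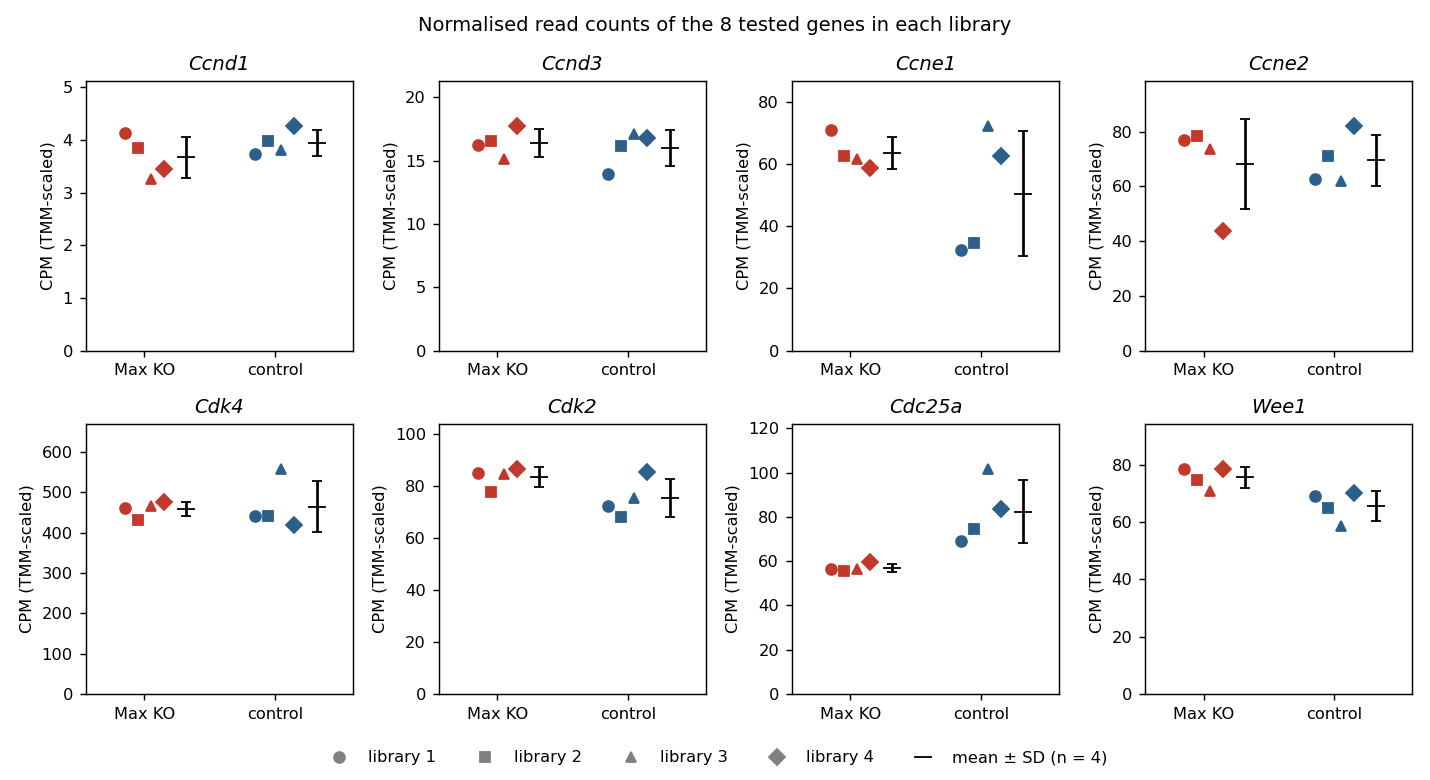
Normalised read counts (CPM with TMM scaling, linear axes from 0) of the 8 tested genes; each symbol is 1 library, with a shape for each library number, and the bar is the mean ± SD of 4 libraries. Cdc25a lay between 55.7 and 59.7 CPM in Max KO, below all controls, while Ccne1 in controls lay at 32.3 and 34.8 CPM in libraries 1 and 2 and at 72.2 and 62.7 CPM in libraries 3 and 4.

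Among the D cyclins, which link growth signals to the cell cycle, Ccnd3 carried most of the reads in both groups. Ccnd3 was measured at 16.2, 16.5, 15.1 and 17.7 CPM in Max KO libraries 1 to 4, against 13.9, 16.1, 17.1 and 16.8 CPM in controls 1 to 4. The values of the groups overlapped. For Ccnd3 the log2 fold change was 0.04 (95% interval -0.18 to 0.26, adjusted p = 0.821). Its sign changed with the control pair, at 0.13 with only controls 1 and 2 (adjusted p = 0.355) and -0.05 with only controls 3 and 4 (adjusted p = 0.775). Ccnd1, the D cyclin often induced by mitogens, was at 4.12, 3.85, 3.25 and 3.45 CPM in Max KO, against 3.72, 3.97, 3.81 and 4.26 CPM in controls. These groups overlapped too, with a log2 fold change of -0.10 (95% interval -0.44 to 0.24, adjusted p = 0.691), and the counts behind them were small, 48 to 79 reads a library in Max KO and 52 to 76 in controls.

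Ccnd2 was close to empty. Its reads numbered 0, 2, 1 and 0 in Max KO libraries 1 to 4 and 0, 1, 1 and 1 in controls 1 to 4. Summed over 4 libraries it made up 0.230% of D cyclin reads in Max KO (3 of 1303, exact 95% interval 0.0475% to 0.671%) and 0.222% in controls (3 of 1349, 0.0459% to 0.649%). No fold change is given for it, since both groups lay under the floor of 3 reads a library. Hmgcs1, a sterol synthesis gene that most cells use, was listed at 0 reads in all 8 libraries, so a listing near 0 is not read as absence.

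No difference in the balance among D cyclins was detected, and the Ccnd3 shares of the groups overlapped. Ccnd3 made up 79.7%, 80.6%, 82.0% and 83.7% of D cyclin reads in Max KO libraries 1 to 4, against 78.9%, 80.0%, 81.5% and 79.5% in controls 1 to 4. The exact 95% interval of a single value was wider than the spread between libraries (75.4% to 83.6% in Max KO library 1, 76.9% to 86.4% in Max KO library 3). The log2 ratio of Ccnd3 to Ccnd1 reads averaged 2.16 ± 0.16 in Max KO and 2.01 ± 0.11 in controls (SD, n = 4 each). The difference of 0.15 did not pass an exact permutation test, two-sided, with 70 ways to assign the libraries (p = 0.171, adjusted p = 0.40 over 6 ratios). Even the smallest p that this test allows, 0.0286, would not pass that adjustment for 1 ratio alone. The summed D cyclin level was 20.1 ± 1.18 CPM in Max KO and 19.98 ± 1.599 CPM in controls. Ratios that contain Ccnd2 would rest on the pseudocount of 0.5 reads and are not reported.

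Levels were set per kilobase of exon, with each gene's length taken as the union of exons of its transcripts in the basic set of GENCODE M21 (GRCm38), and the order of the 10 genes was similar in both groups. Cdk4 led at 221 ± 9.03 RPKM in Max KO and 229 ± 28.1 in controls (SD, n = 4 each). RPKM are reads per kilobase of exon, scaled to a library's plain total of reads in genes, without TMM factors. Cdk2 followed at 34.2 ± 1.63 in Max KO and 31.6 ± 3.48 in controls, and Ccne1 at 31.4 ± 2.45 in Max KO and 25.5 ± 10.1 in controls, 2 neighbours that did not differ beyond their spread. Next came Wee1 (21.8 ± 1.05 in Max KO, 19.4 ± 1.78 in controls) and Ccne2 (21.05 ± 5.06 in Max KO, 22.01 ± 3.30 in controls), whose order differed between the groups within the spread. Cdc25a was at 11.96 ± 0.414 in Max KO and 17.6 ± 2.97 in controls. Ccnd3 lay at 6.62 ± 0.451 in Max KO and 6.61 ± 0.621 in controls, and Ccnd1 at 0.968 ± 0.102 in Max KO and 1.07 ± 0.0810 in controls. On this per-length scale the level of Ccne1 over that of Ccnd3 was 5.34, 4.64, 4.99 and 4.06 in Max KO libraries 1 to 4, against 2.83 and 2.64 in controls 1 and 2 and 5.16 and 4.57 in controls 3 and 4. Ccne1 was thus above Ccnd3 in every library, and whether Max KO exceeded controls depended on the control pair. The order depends on the length used. With the union over all annotated transcripts, a choice made after the values were seen, Cdk4 stayed in place 1, Cdk2 moved to place 5 in both groups (13.2 ± 0.631 in Max KO, 12.2 ± 1.35 in controls), and Cdc25a, Ccnd3 and Ccnd1 kept places 6, 7 and 8. Ccnd3 was then at 1.85 ± 0.126 in Max KO and 1.84 ± 0.173 in controls, and Ccne1 over Ccnd3 averaged 12.8 in Max KO and 10.2 in controls.

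**Figure D2:**
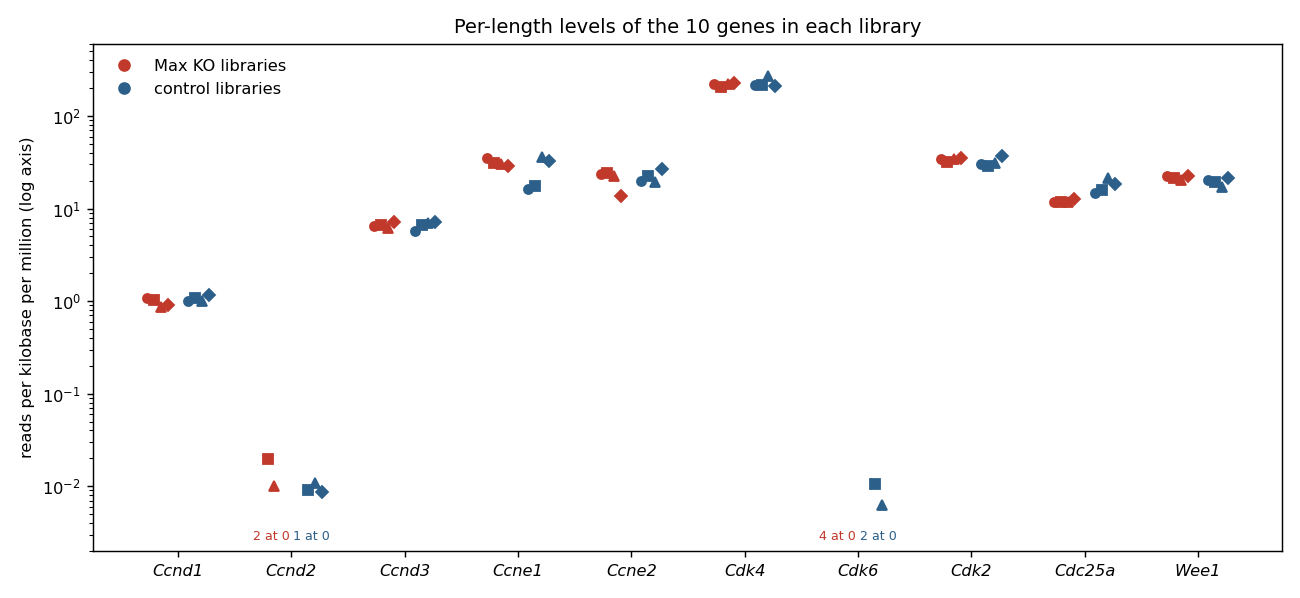
RPKM (log axis) for the 10 genes, with each library as a point, Max KO left of control for each gene; libraries with no read are written as a number at 0. Cdk4 is the highest gene, with 221 in Max KO and 229 in controls on average, and Ccnd2 and Cdk6 lie near or at 0.

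Cdk4, the catalytic partner of D cyclins, did not pass the test. Its level was 462, 432, 466 and 475 CPM in Max KO libraries 1 to 4, against 440, 443, 558 and 419 CPM in controls 1 to 4. Control 3 stood above all other libraries, and the groups overlapped. For Cdk4 the log2 fold change was -0.02 (SE 0.10, 95% interval -0.23 to 0.19, adjusted p = 0.913), and it was 0.08 without control 3. With only controls 1 and 2 it was 0.05 (adjusted p = 0.552), and with only controls 3 and 4 it was -0.10 (adjusted p = 0.603). Cdk6, the other D cyclin kinase, had 0 reads in each Max KO library and 0, 2, 1 and 0 reads in controls 1 to 4. Its share of Cdk4 and Cdk6 reads was 0 of 29685 in Max KO (exact 95% interval 0% to 0.0124%). In controls it was 3 of 31200 (0.00962%, exact 95% interval 0.00198% to 0.0281%). Of the pair of kinases that D cyclins use, nearly all reads thus belonged to Cdk4.

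The Cdk4 promoter is shown because it holds the MAX binding motif 4 times while its transcript did not pass the test, and those of Cdc25a and Cdk2 because each holds an E2F motif. Each is the 250 bases before the transcription start in RefSeq's annotation of GRCm38.p6, written 5′ to 3′, with motif matches in capitals.
Cdk4, chr10:127063285-127063534, plus strand: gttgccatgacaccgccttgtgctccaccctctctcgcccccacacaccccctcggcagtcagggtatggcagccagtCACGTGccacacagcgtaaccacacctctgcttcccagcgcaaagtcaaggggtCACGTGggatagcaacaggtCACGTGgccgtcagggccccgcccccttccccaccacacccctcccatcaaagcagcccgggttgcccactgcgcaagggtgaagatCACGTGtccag
Cdc25a, chr9:109875329-109875578, plus strand: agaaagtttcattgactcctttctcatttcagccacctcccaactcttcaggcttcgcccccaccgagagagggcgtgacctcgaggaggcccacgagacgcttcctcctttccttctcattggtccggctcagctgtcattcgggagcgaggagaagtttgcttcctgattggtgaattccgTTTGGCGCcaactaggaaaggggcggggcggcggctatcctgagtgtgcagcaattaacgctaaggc
Cdk2, chr10:128705052-128705301, minus strand: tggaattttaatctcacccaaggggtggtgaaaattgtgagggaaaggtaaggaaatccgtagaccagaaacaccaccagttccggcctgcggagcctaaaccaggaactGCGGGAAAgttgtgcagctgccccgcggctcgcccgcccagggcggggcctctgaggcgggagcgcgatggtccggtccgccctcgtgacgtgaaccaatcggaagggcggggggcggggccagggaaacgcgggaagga
The motifs searched, on both strands, were the E-box CACGTG and the E2F sites TTTCGCGC, TTTGGCGC, TTTCCCGC and TTTGCCGC, and no 2 matches shown overlap. The E-boxes of Cdk4 began 172, 118, 98 and 11 bases before the start. At least 1 E-box was found in 6.02% of all 32851 promoter windows of this length, and 4 or more in 7 windows (0.0213%). An E2F site, found in 1.86% of windows, began 67 bases before the start of Cdc25a and 140 before that of Cdk2. Windows were at hand for 6 of the 10 genes (Ccnd3, with 2, Ccne1, Cdk4, Cdk6, Cdk2 and Cdc25a). Cdk6 held 1 E-box, 220 bases before the start, and the windows of Ccnd3 and Ccne1 held none of these letters. A match describes the sequence and does not show that a factor binds there.

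Ccne1, an E cyclin that drives the step into S phase with CDK2, was the tested member that varied most among controls (coefficient of variation 8.16% in Max KO and 39.6% in controls). It was at 70.9, 62.7, 61.6 and 58.8 CPM in Max KO libraries 1 to 4, against 32.3, 34.8, 72.2 and 62.7 CPM in controls 1 to 4. All Max KO values lay above controls 1 and 2 and within or below the range of controls 3 and 4. The log2 fold change over all controls was 0.34 (SE 0.23, 95% interval -0.17 to 0.85, adjusted p = 0.335). With only controls 1 and 2 it was 0.92 (adjusted p = 2.42e-07), and with only controls 3 and 4 it was -0.09 (adjusted p = 0.577), by edgeR's quasi-likelihood test. The sign of the Ccne1 difference therefore depended on the control pair. Calca, a neuroendocrine peptide gene, split the controls into the same pairs but in the other direction, with 524 to 589 CPM in Max KO, 1980 and 1783 CPM in controls 1 and 2, and 399 and 467 CPM in controls 3 and 4. The part of any difference in culture or RNA between the pairs in this result was not tested.

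Ccne2, the other E cyclin, was at 77.1, 78.5, 73.6 and 43.6 CPM in Max KO libraries 1 to 4, against 62.9, 71.2, 62.1 and 82.1 CPM in controls 1 to 4. Max KO library 4 lay below all other libraries, and the groups overlapped. The log2 fold change was -0.03 (95% interval -0.40 to 0.34, adjusted p = 0.926), and 0.13 (adjusted p = 0.443) without Max KO library 4. It was 0.03 with only controls 1 and 2 (adjusted p = 0.941) and -0.09 with only controls 3 and 4 (adjusted p = 0.832). Within a library, Ccne1 made up 47.9%, 44.4%, 45.5% and 57.4% of E cyclin reads in Max KO, against 33.9%, 32.8%, 53.8% and 43.3% in controls. These shares differed between libraries by more than counting error (exact 95% intervals 54.9% to 59.8% in Max KO library 4 and 31.8% to 36.1% in control 1). The log2 ratio of Ccne2 to Ccne1 averaged 0.07 ± 0.34 in Max KO and 0.54 ± 0.58 in controls (SD, n = 4 each), a difference of -0.47 that did not pass the exact permutation test (two-sided p = 0.20, adjusted p = 0.40). That difference was -0.93 against controls 1 and 2 and -0.02 against controls 3 and 4. The summed E cyclin level was 132 ± 20.2 CPM in Max KO and 120 ± 23.4 CPM in controls.

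Cdk2, the kinase bound by E cyclins, was at 85.1, 77.6, 84.5 and 86.5 CPM in Max KO libraries 1 to 4, against 72.4, 68.2, 75.2 and 85.4 CPM in controls 1 to 4. Control 4 reached into the Max KO range. For Cdk2 the log2 fold change was 0.15 (SE 0.08, 95% interval -0.03 to 0.33, adjusted p = 0.224). It passed the threshold with only controls 1 and 2 (0.24, adjusted p = 0.0117) and without control 4 (0.22, adjusted p = 0.0490), and was 0.05 with only controls 3 and 4 (adjusted p = 0.764).

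**Figure D3:**
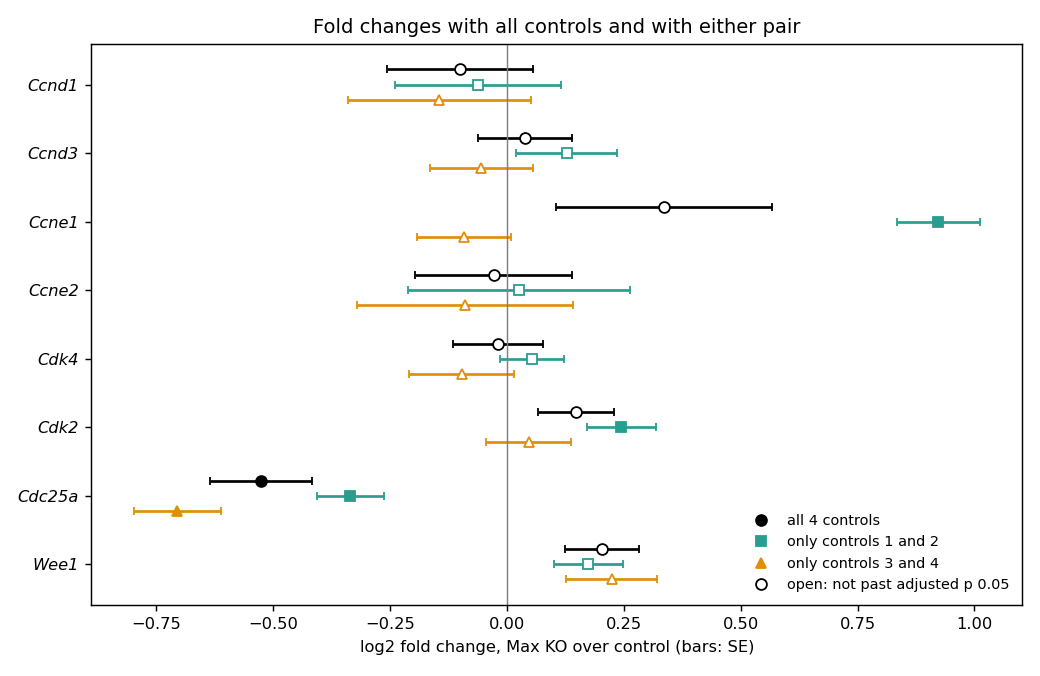
Log2 fold change (Max KO over control, edgeR, bars are standard errors) of the 8 tested genes with all 4 controls and with either pair of controls; filled symbols passed an adjusted p of 0.05. Cdc25a lay below 0 with all controls (-0.53) and with either pair (-0.33 and -0.71), while Ccne1 was 0.92 with controls 1 and 2 and -0.09 with controls 3 and 4.

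Cdc25a, whose phosphatase activates CDK2 and so promotes the entry into S phase, was at 56.3, 55.7, 56.3 and 59.7 CPM in Max KO libraries 1 to 4, against 69.1, 74.5, 102 and 83.6 CPM in controls 1 to 4. The 4 Max KO values lay close together, with a coefficient of variation of 3.21%, against 17.3% in controls, and below every control. The log2 fold change was -0.53 (SE 0.11, 95% interval -0.76 to -0.29, edgeR adjusted p = 0.00473), that is, 1.44-fold lower in Max KO. All 18 alternative fits called it lower, with adjusted p from 0.000118 to 0.0198, and its size was smallest against controls 1 and 2 (-0.33) and largest against controls 3 and 4 (-0.71). Control 3, with the highest Cdc25a, also had the highest level of Myc, whose protein pairs with MAX (176 CPM, against 26.3 to 30.1 CPM in Max KO and 23.7 to 45.9 CPM in the other controls). Without that control the fall of Cdc25a was -0.41. Control 4, with the lowest Myc of all libraries, had the second highest Cdc25a. Mycn, another MYC family gene, was at 6.64 to 8.36 CPM in Max KO and 9.20 to 11.3 CPM in controls. Its log2 fold change was -0.44 (edgeR adjusted p = 0.0191). Mycl1 was at 69.1 to 78.3 CPM in Max KO and 71.6 to 91.3 CPM in controls (-0.18, edgeR adjusted p = 0.190). The part of Myc, Mycn or Mycl1 in the Cdc25a result was not tested. Of the other CDC25 phosphatase genes, Cdc25b (-0.05, adjusted p = 0.721) and Cdc25c (-0.04, adjusted p = 0.875), which act mainly at mitosis, did not pass the threshold, and whether they differ from Cdc25a in response was not tested.

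Wee1, the kinase gene whose product opposes CDC25A on CDK2, was at 78.4, 74.8, 70.8 and 78.4 CPM in Max KO libraries 1 to 4, against 69.1, 64.8, 58.5 and 70.1 CPM in controls 1 to 4. Every Max KO value lay above every control, by a margin of less than 1 CPM between Max KO library 3 and control 4. Its log2 fold change of 0.20 (SE 0.08, 95% interval 0.03 to 0.37) did not pass the threshold (edgeR adjusted p = 0.0838). It passed in 1 of 18 alternative fits, without control 4 (0.24, adjusted p = 0.0496). Pkmyt1, which encodes the related kinase that acts on CDK1, was at 0.27 (adjusted p = 0.218).

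The ratio of Cdc25a to Wee1 reads within a library is free of library scaling. It was 0.718, 0.745, 0.795 and 0.762 in Max KO libraries 1 to 4, against 1.00, 1.15, 1.74 and 1.19 in controls 1 to 4. Every Max KO library held fewer Cdc25a than Wee1 reads, and no control did, though control 1 was even, at 1373 and 1372 reads. A ratio of 1 does not mark equal levels, since exon lengths were 4709 bases for Cdc25a and 3419 for Wee1. Per kilobase of exon, Cdc25a was below Wee1 in controls 1, 2 and 4 too, and above it in control 3 (21.5 and 17.0 RPKM). On the log2 scale the mean was -0.41 ± 0.06 in Max KO and 0.31 ± 0.34 in controls (SD, n = 4 each), a difference of -0.72. The two-sided exact permutation test gave p = 0.0286, the smallest that 70 assignments allow. Adjusted over the 6 ratios it was 0.171, above the threshold. A ratio alone at the smallest p could not pass this adjustment, so nothing is concluded from the missed threshold. Without 1 library the difference ranged from -0.82 to -0.56, with the smallest size without control 3, and it was -0.51 against controls 1 and 2 and -0.93 against controls 3 and 4.

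**Figure D4:**
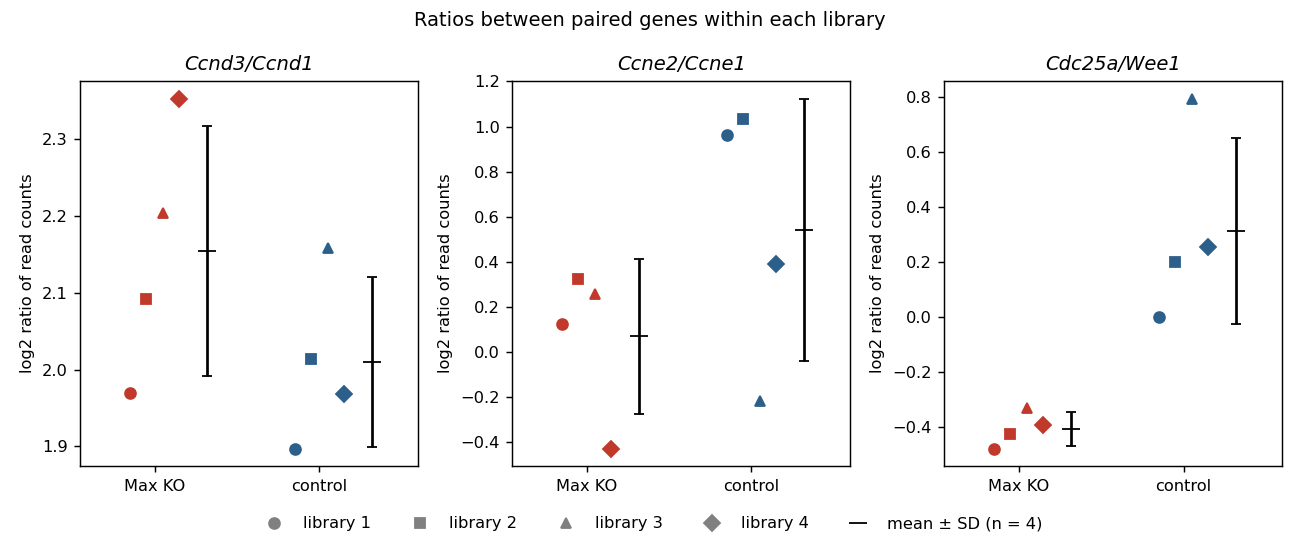
Log2 ratio of read counts of 2 genes within each library (symbols, with a shape for each library number; bar, mean ± SD of 4 libraries), with linear axes that do not start at 0. For Cdc25a over Wee1 the Max KO libraries average -0.41 and the controls 0.31 without overlap, whereas the groups overlap for Ccnd3 over Ccnd1 and for Ccne2 over Ccne1.

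Other genes of the same pathway were read from 5 lists, beside 10.9% of all tested genes called higher and 12.2% called lower. Of 7 CDK inhibitor genes, 2 fell, none rose and 5 did not pass. Cdkn1c, which encodes p57, fell to 15.8 ± 2.14 CPM in Max KO, against 54.1 ± 13.4 CPM in controls (SD, n = 4 each; log2 fold change -1.77, SE 0.18, edgeR adjusted p = 8.75e-05). Cdkn2b, which encodes p15, an inhibitor of CDK4 and CDK6, fell by a smaller amount (log2 fold change -0.44, adjusted p = 0.0386), a call kept in 9 of 18 alternative fits. It was -0.42 with only controls 1 and 2 (adjusted p = 0.0325) and -0.46 with only controls 3 and 4, where it did not pass (adjusted p = 0.0781). The list's median was -0.28. Of 19 further cyclin, CDK and activator genes, Ccnf, which encodes the F-box protein cyclin F, rose (0.41, adjusted p = 0.0207). Its value was 0.62 with only controls 1 and 2 (adjusted p = 1.06e-05) and 0.22 with only controls 3 and 4, where it did not pass (adjusted p = 0.137), and it also did not pass without Max KO library 1 or 4 or without control 1 or 2. Ccng2, which encodes an atypical cyclin linked to cell cycle arrest, fell to 26.9 ± 1.10 CPM in Max KO, against 49.6 ± 18.8 CPM in controls (-0.89, adjusted p = 0.0153). Ccng2 split the controls into the same pairs, but opposite to Ccne1, at 71.3 and 59.2 CPM in controls 1 and 2 and 34.5 and 33.3 CPM in controls 3 and 4, and its log2 fold change was -1.28 with only controls 1 and 2 and -0.34 with only controls 3 and 4. The other 17 genes did not pass, and the list's median was -0.02. With only controls 1 and 2, where 22% of all tested genes rose and 22.6% fell, 2 of these 19 genes rose and 5 fell, and of the 7 inhibitor genes 1 rose and 5 fell. With only controls 3 and 4, where 9.39% of all tested genes rose and 11.3% fell, 2 of the 19 rose and 1 fell, and of the 7 inhibitor genes 1 fell. Leaving out 1 library gave 1 to 4 inhibitor genes that fell, with 4 without control 3, and 0 or 1 of the 19 genes that rose. Over all tested genes, 963 to 1846 rose and 1139 to 1929 fell in these fits, with 1929 lower without control 3, against 1457 and 1627 with all 8 libraries.

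Of 13 genes of the pocket proteins and E2F and DP factors, 2 rose, 1 fell and 10 did not pass, with a median of 0.13. E2f1, an activator of S phase genes, was at 199 ± 8.90 CPM in Max KO and 146 ± 29.8 CPM in controls (SD, n = 4 each; 0.45, adjusted p = 0.0208), and its relative E2f2 rose by 0.30 on the log2 scale (adjusted p = 0.0281). Rbl2, which encodes p130, fell by 0.38 on the log2 scale (adjusted p = 0.0323). Rbl2 and Rb1, both in this list, are the genes of the p130lox and Rblox/lox alleles that every population carried. Whether their reads came from recombined alleles was not tested. Of these 13 genes, 7 rose and 1 fell with only controls 1 and 2, beside the 22% and 22.6% of all genes, and with only controls 3 and 4 none passed. E2f1 was then at 0.73 (adjusted p = 2.56e-07) and 0.21 (adjusted p = 0.0911), E2f2 at 0.43 (adjusted p = 0.00010) and 0.18 (adjusted p = 0.196), and Rbl2 at -0.44 (adjusted p = 0.00133) and -0.33 (adjusted p = 0.114). Leaving out 1 library gave 0 to 4 genes that rose, with none without Max KO library 1, 2 or 4 or control 2. In these fits 963 to 1846 of all tested genes rose. Of 21 E2F target genes, 4 rose, none fell and 17 did not pass, with a median of 0.20 against 0.00 over all genes. The helicase subunit genes Mcm3 (396 ± 13.0 CPM in Max KO, 286 ± 28.1 CPM in controls, 0.47, adjusted p = 0.00194), Mcm2 (0.34, adjusted p = 0.00560) and Mcm6 (0.29, adjusted p = 0.0411) and the methylation maintenance gene Uhrf1 (0.36, adjusted p = 0.0230) rose. Of the 21, 16 rose with only controls 1 and 2, beside 22% of all genes, and with only controls 3 and 4, 2 did, beside 9.39%, with medians of 0.36 and 0.06. With only controls 3 and 4, Uhrf1 (0.18, adjusted p = 0.162) and Mcm6 (0.15, adjusted p = 0.294) did not pass, against 0.56 (adjusted p = 3.72e-06) and 0.44 (adjusted p = 7.21e-05) with only controls 1 and 2. The count was 10 without control 3, 6 without control 4, 3 without Max KO library 3, and 2 without any other 1 library. Over all tested genes, 1779 rose without control 3, 1846 without control 4 and 1003 without Max KO library 3. The other such fits had 963 to 1185 genes higher, against 1457 with all 8 libraries.

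Of 18 genes that govern the turnover of these proteins, 4 rose, 2 fell and 12 did not pass, with a median of 0.00. Against controls 1 and 2 alone 4 rose and 4 fell, beside 22% and 22.6% of all tested genes. Against controls 3 and 4 alone 5 rose and 2 fell, beside 9.39% and 11.3%. Without 1 library 3 to 5 rose and 1 or 2 fell, while 963 to 1846 and 1139 to 1929 of all tested genes did. With all 8 libraries, 1457 (10.9%) of the 13358 tested genes rose and 1627 (12.2%) fell. Chek1, whose kinase marks CDC25A for destruction, was at 89.4 ± 5.94 CPM in Max KO and 62.5 ± 7.26 CPM in controls (SD, n = 4 each; 0.52, SE 0.09, adjusted p = 0.00202). Btrc, whose F-box protein recruits the ligase for CDC25A and WEE1, was at 77.1 ± 1.17 CPM in Max KO and 57.5 ± 8.01 CPM in controls (0.42, adjusted p = 0.00717). Usp2, a deubiquitinase that stabilises cyclin D1, was at 94.0 ± 9.21 CPM in Max KO and 65.1 ± 4.47 CPM in controls (0.53, adjusted p = 0.00122). Fbxw7, whose F-box protein targets cyclin E, fell to 37.9 ± 6.05 CPM in Max KO, against 54.0 ± 2.31 CPM in controls (-0.51, adjusted p = 0.00487). These 4 genes were named for having the smallest p in the list. Their groups did not overlap, as for 26.4% of all tested genes, and each kept its call in all 18 alternative fits. Both traits follow in part from that choice and are not separate evidence. Protein levels were not measured here.

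**Figure D5:**
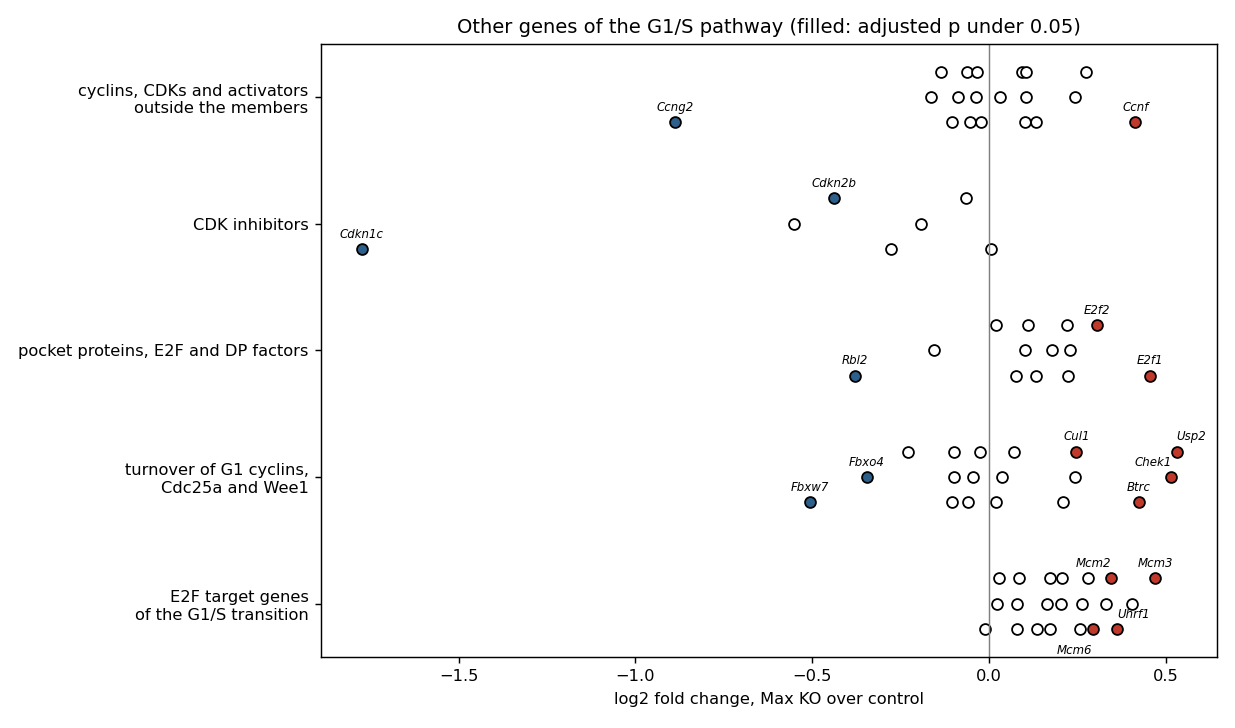
Log2 fold change (Max KO over control, edgeR) of every tested gene in 5 lists of G1/S genes; each circle is a gene, filled and named where the adjusted p was under 0.05, and vertical offsets only separate the circles. Cdkn1c (-1.77) lies farthest from 0, and 20 of 21 E2F target genes lie above 0, where the median over all tested genes was -0.004. Not drawn are the fits with 1 control pair, where 21 of 21 lay above 0 with only controls 1 and 2 and 15 of 21 with only controls 3 and 4.

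The genes whose levels followed a D cyclin most closely were sought among 7107 well-expressed genes over the 8 libraries, as a description with no test. For Ccnd3 they were Fam193a, Arhgef1 and Zfp865 (Pearson correlation of log2 CPM 0.947, 0.946 and 0.942), and for Ccnd1 they were Mll5, Rfwd3 and 9930021J03Rik (0.878, 0.862 and 0.862). They are listed for their pattern alone.

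Several members share sequence with other genes, which limits their counts. In GENCODE M21 (GRCm38), exons of Cdk4 overlap those of Tspan31 on the other strand over 641 bases, those of Ccne2 overlap Ints8 over 609, those of Ccnd3 overlap Bysl over 361, and those of Ccnd1 overlap LTO1 (Oraov1 in the files) over 1100. Neither the strand setting nor a stranded kit is stated, so reads there could belong to either gene or have been left out as ambiguous. Tspan31 (-0.11, adjusted p = 0.402), Ints8 (-0.13, adjusted p = 0.464), Bysl (0.16, adjusted p = 0.241) and Oraov1 (-0.14, adjusted p = 0.414) did not pass the threshold. Ccnd3 also has a processed pseudogene, Ccnd3-ps, identical over 96.3% of 881 aligned bases, so its level is less certain than that of Cdc25a, Wee1 or Ccne1, for which no copy of at least 95% identity over 200 bases was found among annotated transcripts.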

How the data were processed

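RNA from 8 libraries of preSC cells was sequenced, after TRIZOL extraction and NEB Ultra library preparation from 500 ng of RNA, per the labels' protocols. The authors deposited raw read counts per gene symbol, made with bcl2fastq 1.8.4, TopHat2 2.0.12 and HTSeq 0.6.1 on mm9, per the submitters' processing notes. Neither annotation nor strand setting is given in the sources used. The 5 HTSeq summary rows (27.0% to 33.1% of all reads) were left out of library totals.

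Counts were filtered with filterByExpr, TMM-scaled and compared in R 4.3.3 with edgeR 4.0.16 (quasi-likelihood F test, robust, group as the only term; Benjamini-Hochberg adjustment over all tested genes, threshold 0.05), which was tested on simulated data. CPM values use TMM factors. Marker CPM, floors and per-kilobase values use plain totals; exon lengths over all transcripts were an alternative added after seeing the data. Read ratios within a library used a pseudocount of 0.5 and a two-sided exact permutation test, adjusted over 6 ratios; 3 with Ccnd2 or Cdk6 are not reported. Exact intervals are Clopper-Pearson.

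The members, lists, control pairs and tests were chosen with earlier results of these data known. Named pathway genes are up to 4 called genes with the smallest p in each list; Cdc25b, Cdc25c, Pkmyt1, Calca, Hmgcs1, Dcn, Pdgfra and Chga were named after their values were seen. Alternatives were RLE and upper-quartile scaling, other filters, DESeq2 1.42.0, limma-voom (limma 3.58.1), no robust estimation, a replicate term, and leaving out each library or control pair.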

Additional observations from a re-analysis of the deposited data

Results flagged for a closer look

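In 3 of 22 groups of 4 libraries, 1 library stood apart by Dixon's test at the 95% level, which chance gives in about 1 of 20 groups. Ccne2 was lowest in Max KO library 4, at 43.6 CPM, with the other Max KO libraries at 73.6 to 78.5 CPM. Cdk4 was highest in control 3, at 558 CPM, with the other controls at 419 to 443 CPM. Cdc25a was highest in Max KO library 4, at 59.7 CPM, with the other Max KO libraries at 55.7 to 56.3 CPM, and this value still lay below every control.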

How the results depend on the processing

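Cdc25a was the 1 member called lower under all 18 alternative fits, and the counts of called members were the same as in the reported fit except in the settings that dropped control 4. With only controls 1 and 2, 6068 genes passed, 2987 higher and 3081 lower, and 3 members passed, 2 of them higher. Leaving out 1 library gave 2102 to 3743 changed genes, 963 to 1846 higher and 1139 to 1929 lower, with 1 to 3 members called, 0 to 2 higher and 1 lower. The upper count of members came without control 4, when Cdk2 and Wee1 passed (adjusted p = 0.0490 and 0.0496). Upper-quartile scaling gave 1160 genes higher and 1965 lower, against 1457 and 1627 as reported. The difference of log2 ratios ranged over fits without 1 library from 0.08 to 0.21 for Ccnd3/Ccnd1, from -0.73 to -0.31 for Ccne2/Ccne1 and from -0.82 to -0.56 for Cdc25a/Wee1, and no permutation test was run on these. Among named pathway genes, Cdkn1c, Fbxw7, Btrc, Chek1, Usp2, Mcm2 and Mcm3 were called in all 18 alternatives, while E2f1 was in 13, Ccnf in 13, Uhrf1 in 12, Rbl2 in 11, E2f2 in 10 and Mcm6 in 9.

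With the replicate number as a block, 2532 genes passed, 1208 higher and 1324 lower, and 1 member was called. Libraries with equal numbers did not deviate together (correlations of deviations from group means of -0.200 to 0.00198), so the numbers were not taken to pair libraries. The blocked ratio differences equal the unblocked ones, 0.15, -0.47 and -0.72 (exact two-sided sign-flip p = 0.125, 0.25 and 0.125, where 0.125 is the smallest that 4 pairs allow, so none could pass). Depth limits Ccnd1, Ccnd2 and Cdk6.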
